A study of Mus musculus with 6 samples.

Results

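Genes named as ubiquitin enzymes, TRIM proteins or RING proteins were followed in RAW 264.7 cells, a mouse macrophage line, after 8 h with lipopolysaccharide (LPS) and LPS-binding protein. The members were all features (spots of the array) whose platform gene symbol starts with Trim, Rnf, Ube2, Usp, Herc, Fbxo or Fbxw and goes on with digits or lower-case letters, apart from Usp18 and Ube2c. This rule gave 171 of the 16281 features, for 147 genes: 25 Trim, 49 Rnf, 30 Ube2, 28 Usp, 7 Herc, 23 Fbxo and 9 Fbxw features. Apart from leaving out Usp18 and Ube2c, the rule follows the name alone and applies no measured value. It was chosen, however, with earlier results of these data known. It takes in Usp46os2, which did not match the RefSeq table and whose name marks a transcript on the opposite strand of Usp46, and Usp39, a splicing factor.

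Cells received LPS at 100 ng/ml together with LPS-binding protein at 100 pM, or were left untreated, and both groups were cultured for 8 h. The labels name the line RAW 264.7 in 42 places and RAW 264.4 in 6. RNA of both groups was hybridised together on 6 two-colour arrays, which formed 3 numbered sets. Each set held 1 array with LPS RNA in the dye Cy5 and 1 with LPS RNA in the dye Cy3. Nothing in the labels says that each set came from its own culture. The p-values therefore cover only the variation among the sets, which may be technical. Each value is a log2 ratio of LPS-treated over untreated cells. The numerator of the ratio is unstated. Cy5 over Cy3 is the likely direction, since the labels call the Cy3 RNA control and the Cy5 RNA test, and under the opposite reading rises and falls would exchange places. Values listed at exactly 0 were taken as not measured. A ratio gives no level, so the identity of the cells could not be checked against markers, and in bulk RNA fewer cells of a type and less RNA per cell cannot be told apart.

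Ubiquitin is joined to proteins by a relay of enzymes: an E1 activates it, an E2 (most genes named Ube2) carries it, and an E3 ligase places it on the substrate. TRIM and RNF proteins mostly hold a RING domain, HERC proteins belong to the HECT ligases, and FBXO and FBXW proteins are F-box substrate receptors of SCF ligases, while USP proteins remove ubiquitin again. In macrophages the same chemistry relays signals from Toll-like receptors and RIG-I, and the ubiquitin-like protein ISG15 has its own E1, E2 and E3 enzymes, which interferon induces.

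Of the 171 member features, 155 were measured on 6 arrays and 160 had the 2 or more complete sets that the test required, as did 14343 features of the whole table. The other 11 were not tested. They comprised the features of Trim17, Trim35, Trim54, Rnf141, Usp10, Usp29, Fbxw2 and Fbxw27, and 1 further feature each of Herc2, Ube2v1 and Fbxw5. Of these, 3 (Usp10, Herc2 and Fbxw5) were listed at 0 on all 6 arrays. Over the members, arrays of the same dye orientation correlated with Pearson's r of 0.895 to 0.968, and those of opposite orientation at 0.84 to 0.938. Over all features r was lower, at 0.705 to 0.899 within an orientation and 0.428 to 0.80 between orientations. These are correlations over features, which are not independent replicates. Of the marker features tested, 5 of 12 for macrophages were higher and 2 lower, and 1 of 5 for T cells was higher. For B cells 0 of 5 passed, and for fibroblasts 0 of 4. Over all features 17.1% were higher and 15.6% lower. The T cell rise was that of a Cd4 feature at 0.55 ± 0.31, while another Cd4 feature stood at -0.060 ± 0.174 and did not pass. The part of cell make-up in the results was not tested.

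A small group of members rose strongly in LPS-treated cells, led by Herc6, Trim30a, Ube2l6 and Trim21, and a smaller group fell by little over 2-fold, namely Fbxo5, Usp2 and Ube2t. Most of the rest moved by less than 1.5-fold or did not pass the test. With limma's moderated test on the 3 set means and an adjusted p under 0.05, 38 of 160 member features (23.8%) were higher, against 17.1% of all tested features, and 29 (18.1%) were lower, against 15.6%. In either direction that is 41.9% of the members and 32.7% of all features. Of the 38 rises, 8 were over 2-fold, 7 lay between 1.5-fold and 2-fold, and 23 were smaller. Over all features, 440 of 2448 rises were over 2-fold. As a share of tested features, those are 8 of 160 members against 3.07% of all. Of the 29 falls, 3 were over 2-fold, 5 lay between 1.5-fold and 2-fold, and 21 were smaller. Over all features, 72 of 2242 falls were over 2-fold. As a share of tested features, those are 3 of 160 members against 0.502% of all. The median change was 1.35-fold among the rises and 1.26-fold among the falls. Without set 3, 16 member features were lower and 29 higher, and the counts over all features were smaller too, as the last section gives. The 93 features that did not pass had mean log2 ratios from -0.29 to 0.27, with 95% intervals whose median half-width was 0.13.

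**Figure D1:**
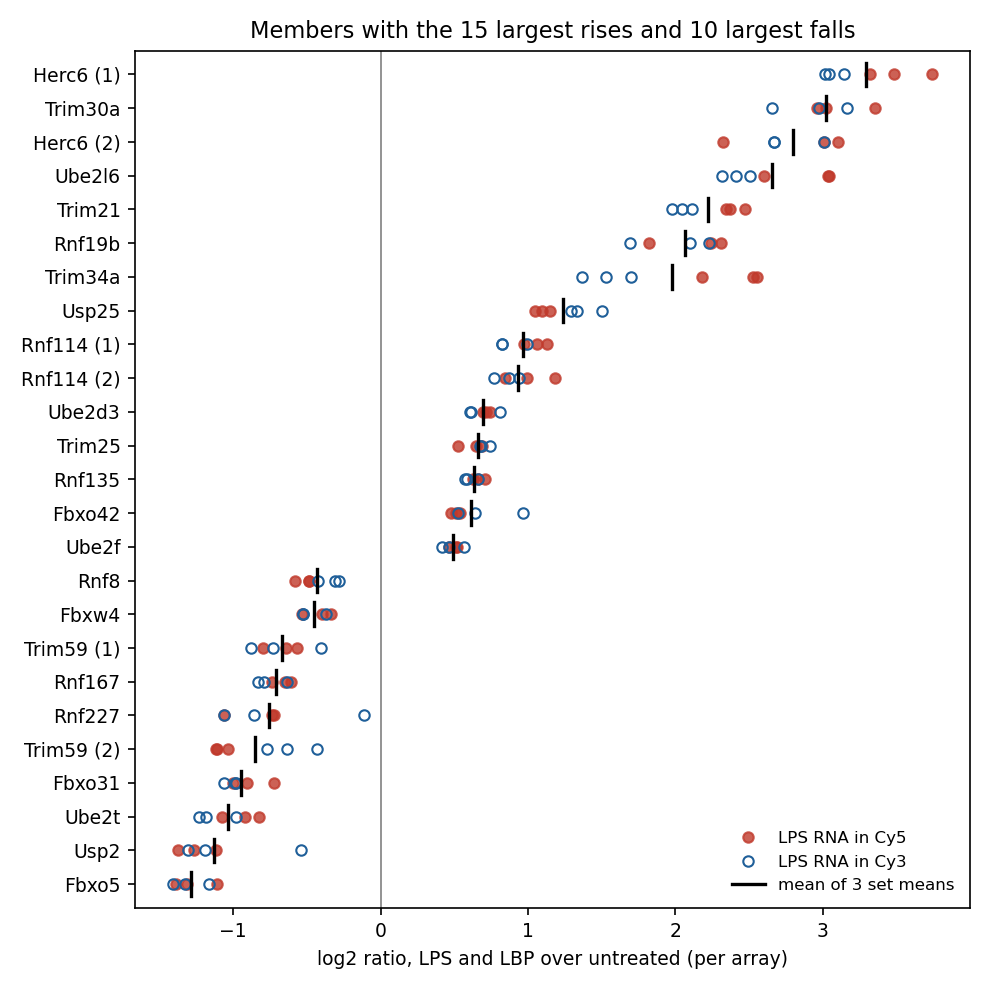
Log2 ratios of LPS and LPS-binding protein (LBP) over untreated on each of the 6 arrays for the 15 largest rises and 10 largest falls among the members. Filled points are arrays with LPS RNA in Cy5, open points those with LPS RNA in Cy3, and bars are means of the 3 set means; numbers in brackets separate features of 1 gene. All 6 points of each feature lie on one side of 0, as the choice of these features required.

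Enzymes of ISG15 conjugation were among the strongest rises. Herc6, the main ISG15 ligase of the mouse, was measured by 2 features. The first had log2 ratios of 3.49, 3.74 and 3.32 on the arrays with LPS RNA in Cy5 and 3.02, 3.14 and 3.04 on those with LPS RNA in Cy3. All 6 values were far from 0, the Cy5 arrays the higher. Its mean was 3.29 ± 0.14 (SD, n = 3 sets), or 9.79-fold, with limma's adjusted p of 1.81e-06. The second Herc6 feature had 3.01, 2.33 and 3.10 with LPS RNA in Cy5 and 2.67, 2.67 and 3.01 with LPS RNA in Cy3. It averaged 2.80 ± 0.28, or 6.95-fold (adjusted p = 1.37e-05 in limma), so that both features rose.

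Ube2l6, the E2 enzyme that carries ISG15, had log2 ratios of 3.05, 3.04 and 2.60 with LPS RNA in Cy5 and 2.50, 2.41 and 2.31 with LPS RNA in Cy3. Values in the Cy5 arrays were the higher ones, and all 6 were far from 0. Its mean was 2.65 ± 0.17, a 6.29-fold rise (limma's adjusted p = 4.1e-06). Trim25, a TRIM ligase that activates the RNA sensor RIG-I and can also transfer ISG15, rose less, by 0.66 ± 0.06 (1.58-fold, adjusted p = 0.000224 in limma), with array values from 0.53 to 0.74. Set beside these members, 3 genes of the same cycle outside the member rule also rose: Isg15 itself by 4.25 ± 0.28, its E1 enzyme Uba7 by 2.35 ± 0.16 and its protease Usp18 by 3.78 ± 0.28. All 7 tested features of the 6 genes of this list were higher, against 17.1% of all features. A second Isg15 feature had 1 measured array and was not tested.

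**Figure D2:**
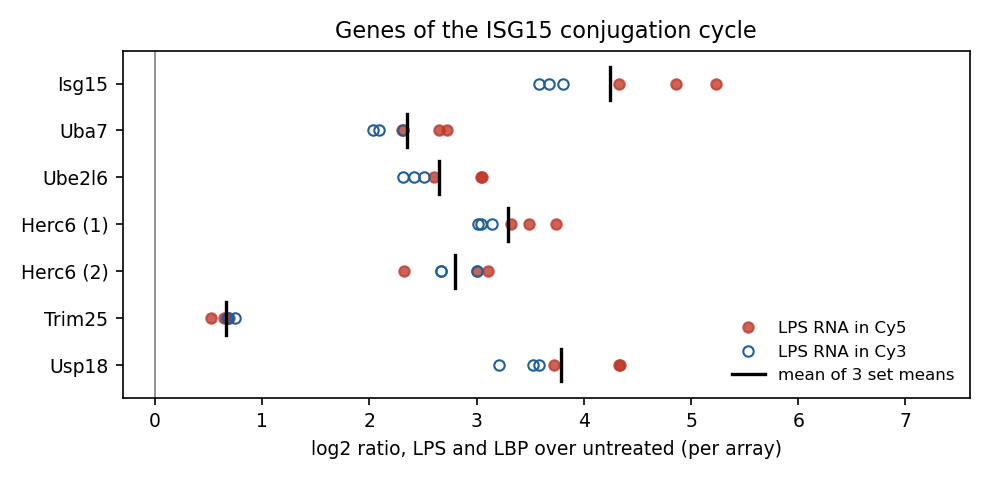
Log2 ratios of LPS and LBP over untreated on each array for the 7 tested features of the ISG15 conjugation cycle, from ISG15 and its E1 (Uba7) through its E2 (Ube2l6) and ligases (Herc6, with 2 features, and Trim25) to its protease (Usp18). Filled points are arrays with LPS RNA in Cy5, open points those with LPS RNA in Cy3, and bars are means of the 3 set means; Trim25, at 0.66, lies below the other genes, which average 2.35 to 4.25.

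A list of antiviral TRIM genes, chosen with earlier results of these data known, held further rises. The list named 18 genes, of which 6 had a tested feature, 1 each. Of these 6 genes, 5 rose (83.3%, against 17.1% of all features), 3 of them over 2-fold. Trim25, given above, is 1 of the 5. Trim27 did not pass (-0.10 ± 0.12, limma's adjusted p = 0.266). Trim30a, a mouse TRIM that dampens Toll-like receptor signalling through TAB2 and TAB3, had log2 ratios of 3.35, 3.02 and 2.96 with LPS RNA in Cy5 and 3.17, 2.66 and 2.97 with LPS RNA in Cy3. The 2 orientations overlapped. Its mean was 3.02 ± 0.21, or 8.13-fold (adjusted p = 4.45e-06 in limma). Trim21, the cytosolic antibody receptor, had 2.37, 2.47 and 2.35 with LPS RNA in Cy5 and 1.98, 2.11 and 2.05 with LPS RNA in Cy3, a tight group within each orientation. It averaged 2.22 ± 0.06, or 4.66-fold (adjusted p = 2.37e-06 in limma).

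Trim34a had 2.18, 2.56 and 2.53 with LPS RNA in Cy5 but 1.37, 1.53 and 1.70 with LPS RNA in Cy3, and the 2 orientations did not overlap. The mean of 1.98 ± 0.18 (3.94-fold, limma's adjusted p = 1.49e-05) averages over that difference. Trim12a rose by 0.59 ± 0.27 (1.51-fold, adjusted p = 0.006 in limma), with 5 of 6 arrays higher and 1 at -0.033. In the RefSeq order of protein-coding genes on chromosome 7, Trim34a and Trim12a are separated by 1 gene (Trim5), and Trim12a and Trim30a by 5, of which 4 are TRIM genes by name. Whether these related genes share signal on the array was not tested, so the value of each is uncertain to that extent.

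The DNA around the starts of these genes is shown because interferon-regulated genes often carry the interferon-stimulated response element (ISRE) there. The letters GAAA, any 2 bases, then GAAA again were searched on both strands of RefSeq promoter windows (GRCm38.p6, from 250 bases before to 50 after a start). Windows were found for 110 of the 147 member genes. Of 7 that rose over 2-fold, 3 held a match, namely Trim21, Trim30a and Trim34a. A match also stood in 1 of 25 genes with smaller rises (Trim12a) and in 0 of 19 that fell. It stood in 5 of 54 that did not pass the test (Fbxo36, Rnf121, Rnf146, Trim2 and Usp17lc). These counts cover genes with a window only, and 28 member genes fell in all. Trim30a, Trim34a and Trim12a are the related genes of chromosome 7 described above, so their matches cannot be counted as independent. Of all 27025 genes with windows of that length, 1079 (3.99%) held one. Of the other patterns searched, GAS letters stood in 14 of the 110 member genes with a window (9.55% of all genes), CHR letters in 22 (20.2%), the 2 E2F forms in 0 (0.585%) and 3 (1.24%), and NF-kappaB letters in 0 (1.89%). A match is a run of letters, not a site shown to be bound. The stretches from 50 bases before to 50 after the start follow, each 5′ to 3′ on the gene's strand, with matches in capitals, and Trim21 holds 2 matches that overlap. For Herc6 and Ube2l6, which rose as strongly, these letters are not in the window, and their stretches are given for comparison.
Trim21, chr7:102565433-102565532, minus strand: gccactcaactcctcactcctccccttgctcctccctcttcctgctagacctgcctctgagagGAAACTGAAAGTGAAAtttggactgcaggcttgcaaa
Trim30a, chr7:104465144-104465243, minus strand: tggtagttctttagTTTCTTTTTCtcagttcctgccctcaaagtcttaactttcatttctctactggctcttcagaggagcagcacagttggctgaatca
Trim30a, second start, chr7:104446076-104446175, minus strand: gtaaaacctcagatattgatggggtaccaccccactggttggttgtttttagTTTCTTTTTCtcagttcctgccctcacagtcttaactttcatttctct
Trim34a, chr7:104244407-104244506, plus strand: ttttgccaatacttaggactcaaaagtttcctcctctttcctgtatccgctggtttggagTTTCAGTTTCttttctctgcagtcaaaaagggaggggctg
Trim12a, chr7:104315446-104315545, minus strand: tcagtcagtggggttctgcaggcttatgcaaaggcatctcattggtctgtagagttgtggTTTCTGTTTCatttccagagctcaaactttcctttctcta
Herc6, chr6:57580942-57581041, plus strand: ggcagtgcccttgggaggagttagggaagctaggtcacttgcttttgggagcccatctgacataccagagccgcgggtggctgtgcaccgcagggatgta
Ube2l6, chr2:84798778-84798877, plus strand: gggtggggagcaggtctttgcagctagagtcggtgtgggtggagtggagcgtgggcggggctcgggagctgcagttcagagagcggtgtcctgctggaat

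Other TRIM genes moved the opposite way. Of 22 tested Trim features, 6 were higher (27.3%) and 8 lower (36.4%), against 17.1% and 15.6% of all features. Together that is 63.6% of the family, against 32.7%. Without set 3, where the lower count over all features was also smaller, the count of lower Trim features was 4. Trim59 fell in both of its features. The first had log2 ratios of -1.11, -1.11 and -1.04 with LPS RNA in Cy5 and -0.77, -0.43 and -0.63 with LPS RNA in Cy3, all below 0, and averaged -0.85 ± 0.09 (limma's adjusted p = 0.000112). The second averaged -0.67 ± 0.18 (adjusted p = 0.00106 in limma).

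Smaller falls were seen in Trim28, the KAP1 corepressor that KRAB zinc finger proteins recruit (-0.41 ± 0.01, limma's adjusted p = 0.00115), in Trim7 (-0.41 ± 0.08), and in Trim33, the TIF1-gamma cofactor of SMAD signalling (-0.21 ± 0.02). Trim39, Trim3 and Trim11 also fell, with means from -0.21 to -0.19. Trim44 rose by 0.40 ± 0.06 (adjusted p = 0.00171 in limma). Apart from Trim59, these TRIM genes lie outside the rule for naming genes and were chosen after their values were seen.

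RING proteins outside the TRIM family gave 13 higher (27.1%) and 9 lower (18.8%) of 48 tested features, against 17.1% and 15.6% of all features. Rnf19b, a RING-between-RING ligase first described in natural killer cells, had log2 ratios of 2.31, 1.82 and 2.24 with LPS RNA in Cy5 and 2.10, 1.69 and 2.23 with LPS RNA in Cy3. In both orientations set 2 was the lowest. Its mean of 2.07 ± 0.27 (4.19-fold, limma's adjusted p = 3.83e-05) stood above that of every other Rnf feature.

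Rnf114, an interferon-inducible ligase with RING and zinc finger domains, rose in both features, by 0.97 ± 0.09 and 0.93 ± 0.13 (1.96-fold and 1.91-fold). Its 12 array values ran from 0.77 to 1.18. Rnf135, also named Riplet, which ubiquitinates RIG-I, had 1 feature at 0.64 ± 0.04 (adjusted p = 0.00023 in limma) and another at 0.025 ± 0.047 (adjusted p = 0.749). The first was higher on 6 of 6 arrays and the second on 3 of 6, so the 2 features of this gene disagreed. Rnf34 rose by 0.43 ± 0.05 on 6 of 6 arrays (adjusted p = 0.0012 in limma). Rnf41, which ubiquitinates receptors at the cell surface and is also named Nrdp1, rose in both features (0.43 and 0.36), and Rnf2, the Polycomb ligase for histone H2A, by 0.44 ± 0.14. These last 2 genes were chosen after their values were seen.

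Among the falls, Rnf167, a RING protein of endosomes and lysosomes, had log2 ratios of -0.74, -0.61 and -0.65 with LPS RNA in Cy5 and -0.83, -0.64 and -0.79 with LPS RNA in Cy3. These 6 values lay close together, with a mean of -0.71 ± 0.08 (limma's adjusted p = 0.000221). Rnf227 averaged -0.76 ± 0.33 (adjusted p = 0.004 in limma), with 5 arrays between -1.07 and -0.72 and the set 2 array with LPS RNA in Cy3 at -0.11. Rnf8, which marks chromatin at DNA breaks, stood at -0.43 ± 0.04 (adjusted p = 0.00108). Rnf128, also named GRAIL and known from T cell anergy, had -0.021 ± 0.04 with a 95% interval from -0.14 to 0.097.

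Of 29 tested Ube2 features, 8 were higher (27.6%) and 3 lower (10.3%), against 17.1% and 15.6% of all features. Without set 3, where the higher count over all features was also smaller, the higher Ube2 count was 5. Besides Ube2l6, the largest rise was that of Ube2d3, an E2 that works with many RING ligases. Its log2 ratios were 0.71, 0.69 and 0.74 with LPS RNA in Cy5 and 0.61, 0.81 and 0.60 with LPS RNA in Cy3, with full overlap of the orientations. The mean was 0.70 ± 0.05, a 1.62-fold rise (limma's adjusted p = 0.000169). Ube2f, an E2 for the ubiquitin-like protein NEDD8, rose by 0.49 ± 0.05 (1.40-fold, adjusted p = 0.00069 in limma). Its partner RING protein Rnf7, picked out for that link, stood at -0.17 ± 0.09 (adjusted p = 0.0572).

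The E2 enzymes that build signalling chains were also listed. Of 8 tested features 2 were higher (25%) and 0 lower, a called share near the 32.7% of all features. The 2 were Ube2d3 and 1 of the 2 features of Ube2v2 (0.26 ± 0.08, limma's adjusted p = 0.0121), whose other feature stood at 0.040 ± 0.153. Ube2n, the E2 for lysine-63-linked chains, had 0.37 and 0.48 on the measured arrays with LPS RNA in Cy5 and -0.28, -0.42 and -0.35 on those with LPS RNA in Cy3. The 2 orientations gave opposite signs, and the mean over the 2 complete sets was 0.018 with a 95% interval from -0.15 to 0.19. Ube2v1, its catalytically inactive partner, averaged 0.079 ± 0.118, and Ube2l3, the E2 of RING-between-RING ligases, 0.026 ± 0.042, with an interval from -0.093 to 0.14.

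Ube2t, the E2 of the Fanconi anaemia repair pathway, had log2 ratios of -1.07, -0.92 and -0.83 with LPS RNA in Cy5 and -1.23, -1.18 and -0.98 with LPS RNA in Cy3. All 6 arrays were lower, with a mean of -1.04 ± 0.13, a 2.05-fold fall (limma's adjusted p = 8.83e-05). Ube2cbp, which encodes a ligase that binds E2 enzymes despite its prefix, stood at -0.33 ± 0.07 (adjusted p = 0.0038). Ube2c, a mitotic E2 left out of the member rule, averaged -0.60 ± 0.23 (adjusted p = 0.00335).

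The F-box receptors held the largest fall of all members. Fbxo5, also named Emi1, which restrains the anaphase-promoting complex until mitosis, had log2 ratios of -1.31, -1.39 and -1.11 with LPS RNA in Cy5 and -1.41, -1.33 and -1.17 with LPS RNA in Cy3. The orientations overlapped, and the mean was -1.29 ± 0.13, a 2.44-fold fall (limma's adjusted p = 3.9e-05). Fbxo31, which directs cyclin D1 to degradation after DNA damage, fell to -0.94 ± 0.09 (1.92-fold, adjusted p = 7.81e-05), with array values from -1.07 to -0.72.

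Among the rises of this family, Fbxo42, a receptor for p53, stood at 0.61 ± 0.10 and Fbxo30 at 0.48 ± 0.08. In all, 4 Fbxo features rose (17.4%) and 5 fell (21.7%) of 23 tested, against 17.1% and 15.6% of all features. Without set 3, where both counts over all features were also smaller, the Fbxo counts were 2 and 2. Without set 1 the lower Fbxo count was 3. Of 6 tested Fbxw features 2 fell and 0 rose, a called share of 33.3%, near the 32.7% of all features. Fbxw4 stood at -0.45 ± 0.09 (limma's adjusted p = 0.00156). Fbxw5 stood at -0.23 ± 0.06 (adjusted p = 0.0162). Leaving out set 1 gave Fbxw5 an adjusted p of 0.053 and leaving out set 3 one of 0.0841, so that Fbxw4 was then the only called member.

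A list of members tied to cell division or DNA repair held more falls than rises. It was chosen with earlier results of these data known and may not hold every such member. Of 9 tested features of that list, from 7 genes, 5 fell (55.6%, against 15.6% of all features) and 1 rose (11.1%, against 17.1%). The falls were those of Fbxo5, Ube2t, Rnf8 and both of Trim59, and the median log2 ratio was -0.43, against -0.0058 over all tested features. The 1 that rose was a feature of Fbxo4, an F-box receptor, at 0.26 ± 0.02 (limma's adjusted p = 0.00674), while the other Fbxo4 feature stood at 0.094 ± 0.047 (adjusted p = 0.203). Outside the member rule, genes of the cullins and of the SCF and anaphase-promoting complexes moved in both directions. Cdc20 fell to -0.73 ± 0.08, Skp2 to -0.56 and -0.61 in its 2 tested features, and Fzr1 to -0.46 ± 0.08. Cul4a (-0.30 ± 0.02), Anapc11 (-0.25 ± 0.03) and 1 feature of Cdc16 (-0.18 ± 0.02) fell less, and the other Cdc16 feature did not pass. Cdc26 rose by 0.36 ± 0.03, Anapc10 by 0.18 ± 0.07 and Cul5 by 0.21 and 0.34 in its 2 features.

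The deubiquitinases of the Usp family gave 5 higher and 2 lower of 26 tested features, together 26.9%, against 32.7% of all features. Without set 3, where fewer of all features were lower, 1 Usp feature was lower. Usp25, which acts on signalling proteins of the TRAF family, had log2 ratios of 1.15, 1.09 and 1.05 with LPS RNA in Cy5 and 1.34, 1.503 and 1.30 with LPS RNA in Cy3. Its values were higher with LPS RNA in Cy3, and all 6 exceeded 1. The mean was 1.24 ± 0.06, or 2.36-fold (limma's adjusted p = 1.98e-05). Usp21 rose by 0.48 ± 0.07 (adjusted p = 0.000923 in limma).

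Usp2, a deubiquitinase that stabilises cyclin D1, had -1.38, -1.27 and -1.12 with LPS RNA in Cy5 and -1.31, -0.54 and -1.19 with LPS RNA in Cy3. The set 2 array with LPS RNA in Cy3 was the nearest to 0, as it was for Rnf227. Usp2 averaged -1.13 ± 0.22, a 2.19-fold fall (limma's adjusted p = 0.000225). Usp48 stood at -0.40 ± 0.20 (adjusted p = 0.0126), or 0.0568 once set 3 was left out. Usp14, which trims ubiquitin at the proteasome, and Usp15 did not pass, at 0.089 ± 0.161 and 0.091 ± 0.064, with intervals from -0.084 to 0.26 for Usp14 and from -0.033 to 0.22 for Usp15.

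In the Herc family the change was that of Herc6. Its 2 features were higher, and the 4 other tested features did not pass, a called share of 33.3%, near the 32.7% of all features. Herc3, a related small HERC protein, stood at 0.23 ± 0.19 (limma's adjusted p = 0.0733), with 5 of 6 arrays higher. Leaving out set 2 gave an adjusted p of 0.00131. The giant ligases Herc1 and Herc2 and the small Herc4 stood at -0.14 ± 0.08, -0.054 ± 0.071 and -0.044 ± 0.205.

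Family medians lay close to 0. Over tested features they were -0.052 for Trim, 0.018 for Rnf, 0.058 for Ube2, 0.058 for Usp, 0.092 for Herc, 0.014 for Fbxo and 0.034 for Fbxw, against -0.0058 for all features. The medians of the 3 sets had an SD of 0.041 for Trim, 0.004 for Ube2 and 0.15 for Herc. The distance between the lower and upper quartile was 2.21 for Herc, where 2 of the 6 tested features are those of Herc6. It was 0.56 for Trim, 0.36 for Rnf, 0.27 for Fbxw, 0.24 for Fbxo, 0.19 for Usp and 0.18 for Ube2, against 0.24 for all features. Features are not replicates, so these figures describe the families, and no test of a difference between them was made.

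**Figure D3:**
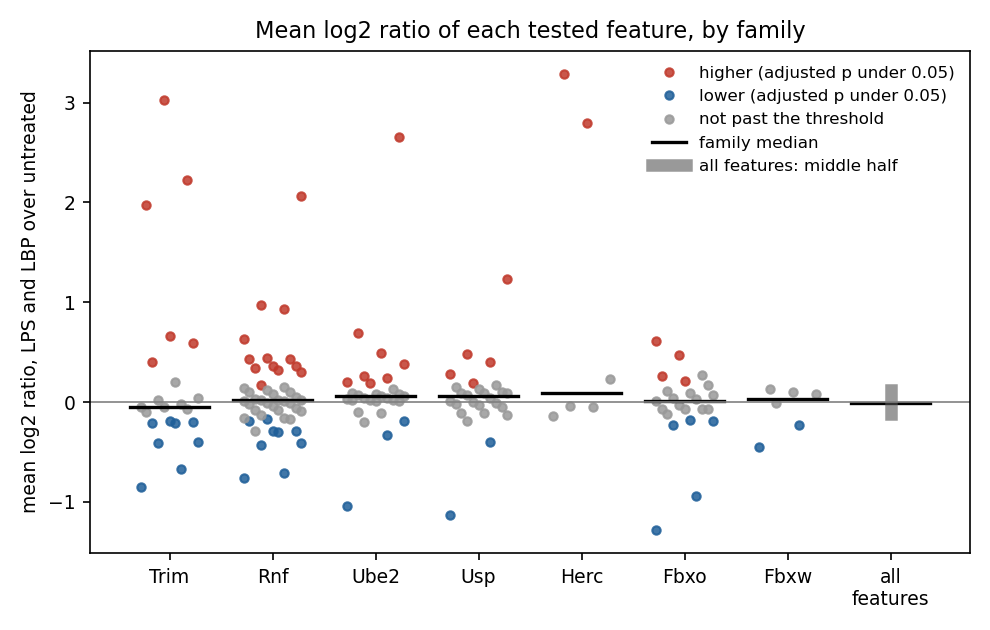
Mean log2 ratio of LPS and LBP over untreated for every tested member feature, by family, with family medians as black bars. The grey bar at the right spans the quartiles of all 14343 tested features, from -0.12 to 0.12; the values above 1 belong to Trim, Rnf, Ube2, Usp and Herc features.

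**Figure D4:**
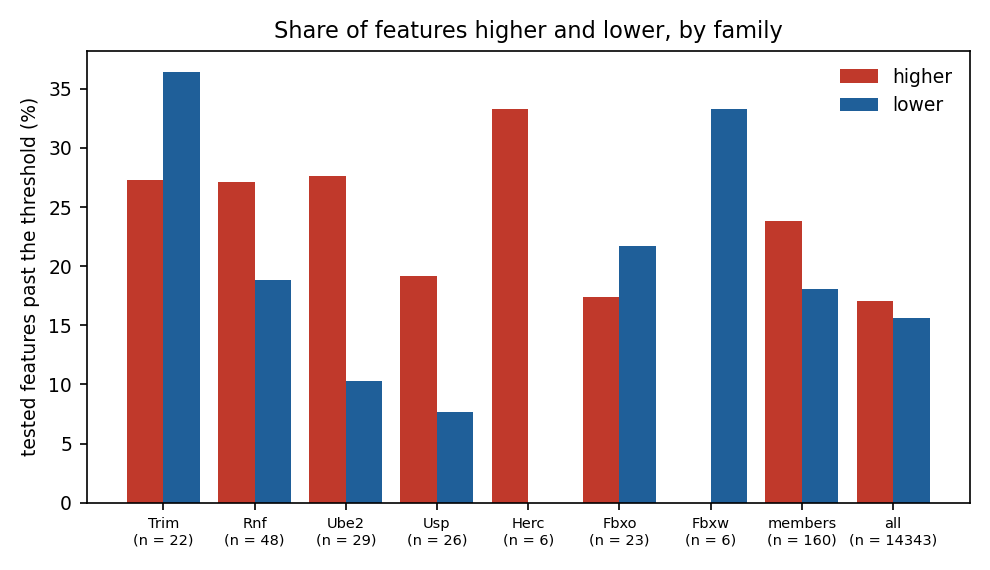
Percentage of tested features in each family with an adjusted p under 0.05 that were higher or lower in LPS-treated cells, with the number tested below each name. All members stand at 23.8% higher and 18.1% lower, and all features at 17.1% and 15.6%.

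The 2 dye orientations were also compared. In a fit over the 6 separate arrays with a term for dye orientation, 6 of 161 member features (3.73%) differed between orientations at an adjusted p under 0.05, against 4.53% of all features. Of the 11 features changed over 2-fold, only Trim34a was among the 6, with means of 2.42 with LPS RNA in Cy5 and 1.53 with LPS RNA in Cy3.

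**Figure D5:**
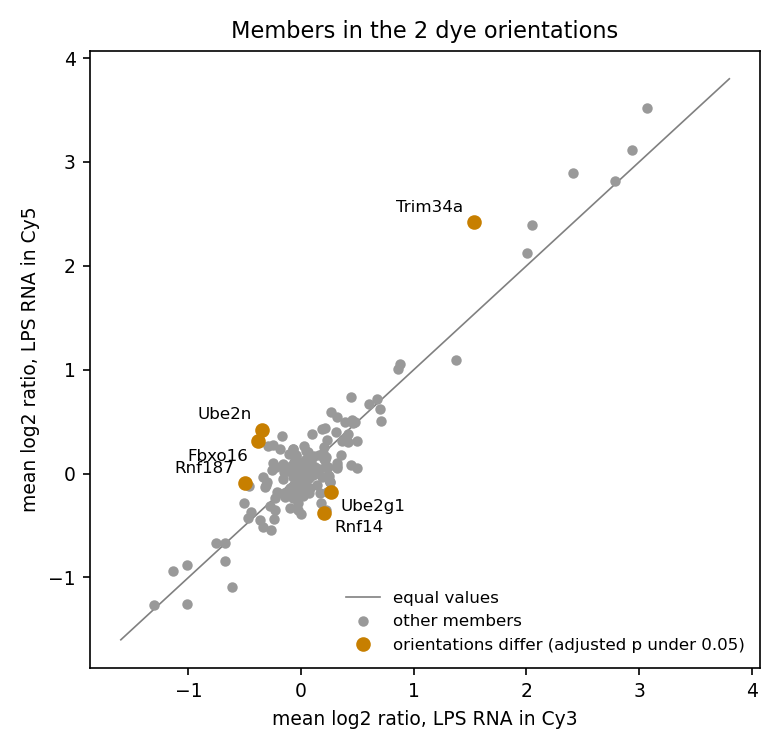
Mean log2 ratio of LPS and LBP over untreated for each tested member, with LPS RNA in Cy3 on the horizontal and LPS RNA in Cy5 on the vertical axis. The 6 named features differed between orientations; Ube2n has opposite signs in the 2 orientations, whereas Trim34a is positive in both.

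Of 20 member genes with 2 or more tested features, 12 had no called feature. Of the other 8, 4 had the same call in each feature (Herc6, Rnf114, Rnf41 and Trim59) and 4 did not. Over the 20 genes the median gap between the highest and lowest mean was 0.073 on the log2 scale. The 4 whose calls differed were Rnf135, Ube2v2, Fbxo4 and Fbxo6, with the widest gap, 0.61, in Rnf135.

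Other parts of the ubiquitin system gave the following counts, to be read against 17.1% higher and 15.6% lower over all features. The genes named from them, and Herc1, Herc2 and Herc4, were chosen after their values were seen. Among deubiquitinases outside the Usp family, 10 of 20 tested features were higher (50%) and 0 lower, with Tnfaip3, the NF-kappaB feedback enzyme A20, at 1.02 ± 0.17 and 0.42 ± 0.14 in its 2 features and Stambpl1 at 0.66 ± 0.09 and 0.47 ± 0.12. Other RING-type ligases and their adaptors gave 10 higher (29.4%) and 5 lower (14.7%) of 34, with Pml, a TRIM protein by structure, at 2.13 ± 0.10 and Brca1, a DNA repair ligase, at -0.92 ± 0.12. HECT ligases other than Herc gave 3 higher (25%) and 0 lower of 12, led by Arel1 (0.92 ± 0.05) and Trip12 (0.86 ± 0.12). Cullins and the core of the SCF and anaphase-promoting complexes gave 4 higher (14.3%) and 7 lower (25%) of 28. Ubiquitin and E1 genes gave 2 higher (50%) and 1 lower (25%) of 4, with Uba7 and 1 feature of Uba3 higher and Sae1, of the SUMO E1, lower (-0.47 ± 0.08).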

How the data were processed

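Each array's column deposited by the authors holds log2 ratios. That the base is 2 was inferred from the values, and no label states the direction of the ratio. How signals were scanned, corrected and normalized was not given in the sources used here, and no intensities were used, so the number of arrays limits the precision. Between 8.16% and 13.9% of features per array were listed at exactly 0 and were taken as not measured.

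Gene symbols came from GEO's platform annotation: 13738 of 16281 had 1 symbol, 52 had several and were not named, and 2491 had none. Of the 171 member features 169 matched RefSeq (GRCm38.p6) by gene identifier, and 0 symbols changed. Signs were turned on arrays with LPS RNA in Cy3, so that every value was LPS over untreated. The labels' set numbers were used to average the 2 arrays of a set, which cancels a dye effect, and a set mean needed both arrays. Features with at least 2 set means were fitted in limma 3.58.1 by lmFit and eBayes against a mean of 0 (R 4.3.3), with Benjamini-Hochberg adjustment over all 14343. SDs are over set means. The procedure was also run on simulated set means with independent noise, rises only and no dye effect. That run cannot show how the procedure fares with dye or set effects. Every adjusted p of a single feature comes from limma.

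Named members were the 15 largest rises and 10 largest falls with an adjusted p under 0.05 and 1 sign on all measured arrays, the 2 largest of each direction per family, and a list of well-known members. The members and lists were chosen with earlier results of these data known, so that no pattern here is independent support. Promoter windows of 110 member genes were searched for ISRE, GAS, NF-kappaB, E2F (in 2 forms) and CHR letters.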

Additional observations from a re-analysis of the deposited data

Results flagged for a closer look

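In 6 member features the log2 ratio differed between the 2 dye orientations in the fit over separate arrays. The difference, LPS RNA in Cy5 minus LPS RNA in Cy3, was 0.89 for Trim34a, 0.77 for Ube2n, 0.70 for Fbxo16, 0.41 for Rnf187, -0.44 for Ube2g1 and -0.59 for Rnf14. Their adjusted p lay between 0.0294 and 0.0479 in limma. Trim34a and Rnf187 kept one sign on all 6 arrays, whereas Ube2n, Fbxo16, Ube2g1 and Rnf14 had opposite signs in the 2 orientations and did not pass the test on set means. The part of the dyes in these differences was not tested further.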

How the results depend on the processing

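The labels give both dye orientations the set numbers 1, 2 and 3. Deviations from the orientation's mean, in the ratios as deposited, correlated at 0.256, 0.212 and 0.0999 between same-numbered arrays. Between arrays of opposite orientation with different numbers they correlated at -0.297 to 0.112. The numbers were not taken as proof of pairing. The main test still averaged arrays by these numbers, and the bearing of this on its p-values was not tested. With the set number as a block, 47 of 155 member features were higher and 33 lower, against 2555 and 2406 of 12798 features in all. With 6 separate arrays, 41 of 161 were higher and 32 lower, against 2692 and 2520 of 14437. Leaving out 1 set gave 29 to 40 higher and 16 to 30 lower member features, and 1621 to 2446 higher and 1335 to 2376 lower features in all, with the lowest counts without set 3. An adjusted p under 0.01 left 28 higher and 16 lower members, and the count over all features at that threshold was not taken. On arrays with LPS RNA in Cy3 alone, 19 members and 1441 of all features were lower, the Fbxw median was -0.12 and Ube2n stood at -0.35. With LPS RNA in Cy5 alone, the medians of Trim, Ube2 and Usp were -0.13, 0.10 and 0.031. The Ube2 median was 0.049 with zeros kept and 0.063 after quantile normalization. With features averaged per gene the Ube2, Fbxo and Fbxw medians were 0.054, -0.0043 and -0.092. Leaving out 1 set gave medians from 0.045 to 0.067 for Ube2, -0.015 to 0.049 for Fbxo, and 0.025 to 0.062 for Usp. Herc3 passed with scaling, quantile normalization or LPS RNA in Cy5 alone, where Usp48 and Fbxw5 did not pass. With LPS RNA in Cy3 alone, Ube2cbp and Rnf227 did not pass. The causes were not tested.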
